A study of Mus musculus with 12 samples.

Results

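The NDRG family (N-myc downstream-regulated genes) was described in mouse retina from the counts of the symbols Ndrg1, Ndrg2, Ndrg3 and Ndrg4. These are 4 of the 35976 genes listed in the count table and 4 of the 24484 with at least 1 count in any library, and each of them had counts in all 12 libraries. The rule is the symbols alone, but the family was selected on earlier results of these data, in which Ndrg4 was low in oxygen-induced retinopathy in the libraries labelled WT, so the values of that contrast are given as a description and carry no test.

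NDRG proteins share an alpha/beta hydrolase fold without known hydrolase activity. Ndrg1 is a transcriptional target of hypoxia-inducible factor that is repressed by N-myc and is a widely used marker of low oxygen, and it is also abundant in myelinating glia. Ndrg2 is strongest in astrocytes and related glia, Ndrg3 encodes a protein that is degraded in an oxygen-dependent way and stabilised by lactate, and Ndrg4 is mostly neuronal in the brain. In oxygen-induced retinopathy (OIR), high oxygen stops the growth of retinal vessels in mouse pups, and the return to room air then leaves the inner retina short of oxygen.

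Retinal RNA was sequenced in 4 groups of 3 libraries each with a QuantSeq 3' kit, which primes on the poly(A) tail. WT is written here for the pups whose sample titles read C57BL/6 mice. Those of WT normoxia were collected at postnatal day 15. Those of WT OIR had spent postnatal days 7 to 12 in 75% oxygen, followed by 3 days in room air, before collection at the same age. Pups labelled Casp1 KO are described as lacking Casp1, which encodes the inflammatory protease caspase-1, and were kept in normoxia or collected 3 days after OIR. Their age, their oxygen level, the deleted allele and the number of animals behind any library are not given in the sources used here, so age, stock and genotype cannot be told apart, and p-values measure only the spread between libraries.

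Casp1 itself went against the labels. It had between 0 and 3 reads in each of the 6 libraries labelled WT and between 10 and 45 in each of the 6 labelled Casp1 KO. Its log2 fold change, Casp1 KO against WT, was 5.11 (SE 1.06) in normoxia and 3.86 (SE 1.01) in OIR. Reads at the 3' end can fall outside a deleted part and then do not check the deletion. That would concern the reads in the libraries labelled Casp1 KO and not the few in those labelled WT. Neither such a position of the reads nor an exchange of the genotype labels was tested. The groups are therefore named by their labels only, and an exchange of the labels would turn the sign of every difference between genotypes given here. Total counts ran from 3391203 to 22815830 per library, with the highest in WT normoxia replicate 2. WT OIR replicate 3 stood apart, with correlations of 0.946 and 0.960 to the other libraries of its group, against 0.973 between those 2. The markers of retina were present in every group, and Glul of Muller glia had a mean of 1140 CPM in WT normoxia, 706 in WT OIR, 819 in Casp1 KO normoxia and 1077 in Casp1 KO OIR, where CPM is a count scaled to its library's size after TMM (trimmed mean of M values) normalization.

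The 4 genes lie on different chromosomes of GRCm38, the mm10 build to which the authors aligned, and all are protein coding in the GENCODE vM21 annotation. Ndrg1 lies on chromosome 15 from 66929318 to 66969640 on the minus strand, with 16 exons in its longest coding form. Ndrg2 occupies chromosome 14 from 51905271 to 51914158 on the minus strand with 16 exons, Ndrg3 chromosome 2 from 156927345 to 156992056 on the minus strand with 17 exons, and Ndrg4 chromosome 8 from 95676980 to 95715119 with 17 exons read from the plus strand. No other annotated gene overlaps Ndrg2 or Ndrg4. Ndrg1 is overlapped by Gm17035 and Gm2895 on the opposite strand and Ndrg3 by Gm27653 on its own strand, and since the strand setting of the counting is not given in the sources used here, reads of Ndrg1 and of its antisense partners cannot be told apart.

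The coding sequences of the members were 65.3% to 71.2% identical in pairs, Ndrg1 and Ndrg4 being the closest pair. The longest exact run shared by any pair of their longest coding transcripts was 32 bases, between Ndrg2 and Ndrg4, which is shorter than the read length of 75 bases. The coding sequence of Ndrg1 differs from the others in holding a tandem repeat of 3 units of 30 bases, which encodes the short repeat near the end of its protein. A search for successive 30-base units at 80% identity or more found no such repeat in the other members. The units lie in the last exon, exon 16, at chr15:66930951-66931040 on the minus strand. They are shown because they set Ndrg1 apart from its family, with capitals at the 6 positions where the units are not all the same.

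Ndrg1 unit 1: gagggCAcccgTagccgctcCcaTaccagC
Ndrg1 unit 2: gagggCCcccgAagccgctcGcaCaccagT
Ndrg1 unit 3: gagggGTcccgTagccgctcCcaTaccagT

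RefSeq promoter windows of 300 bases around annotated starts on GRCm38.p6 were matched by symbol and covered 3 of the 4 members: Ndrg2 with 3 windows, Ndrg3 with 2 and Ndrg4 with 4. Ndrg1 was not among the windows used here. On either strand they were searched for ACGTG and GCGTG, the core letters of the hypoxia response element, and for CACGTG, the E-box to which Myc and Max bind and which contains ACGTG on both strands. GCGTG was found in 5 of the 9 windows and in 32.4% of all 32851 windows of the same length. Of these 5, 2 are Ndrg2 windows that overlap and share a GCGTG, so they are not separate counts and no excess is read. ACGTG was found in 1 of the 9 and in 19.6% of all, and CACGTG in that same window and in 7.15% of all. That window belongs to Ndrg4, the member that differed most in OIR. It is printed from chr8:95677513-95677812 on the plus strand with the matched letters in capitals, which are a description and not a known binding site.

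Ndrg4: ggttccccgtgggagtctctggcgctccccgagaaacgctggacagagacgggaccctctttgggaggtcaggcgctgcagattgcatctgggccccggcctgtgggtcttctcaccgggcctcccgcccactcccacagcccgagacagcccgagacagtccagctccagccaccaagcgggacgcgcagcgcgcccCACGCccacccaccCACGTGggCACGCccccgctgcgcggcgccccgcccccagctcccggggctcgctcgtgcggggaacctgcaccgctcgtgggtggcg

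Ndrg1 and Ndrg3 were the abundant members of the retina and Ndrg2 and Ndrg4 the scarcer ones. Since QuantSeq reads come from the end of a transcript, CPM does not grow with transcript length and can be set side by side between genes, apart from how well each end was captured. Averaged over the 12 libraries, Ndrg1 had a level of 410 CPM and ranked 359 among the 24484 genes, Ndrg3 had 328 CPM and ranked 486, Ndrg4 had 125 CPM and ranked 1713, and Ndrg2 had 87.6 CPM and ranked 2466. Within each group the libraries of Ndrg1 lay above those of Ndrg3 without overlap, and both lay above Ndrg2 and Ndrg4. The order of the last 2 depended on the condition: Ndrg4 was above Ndrg2 without overlap in both normoxia groups, whereas in both OIR groups the libraries of Ndrg4 and Ndrg2 overlapped.

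**Figure D1:**
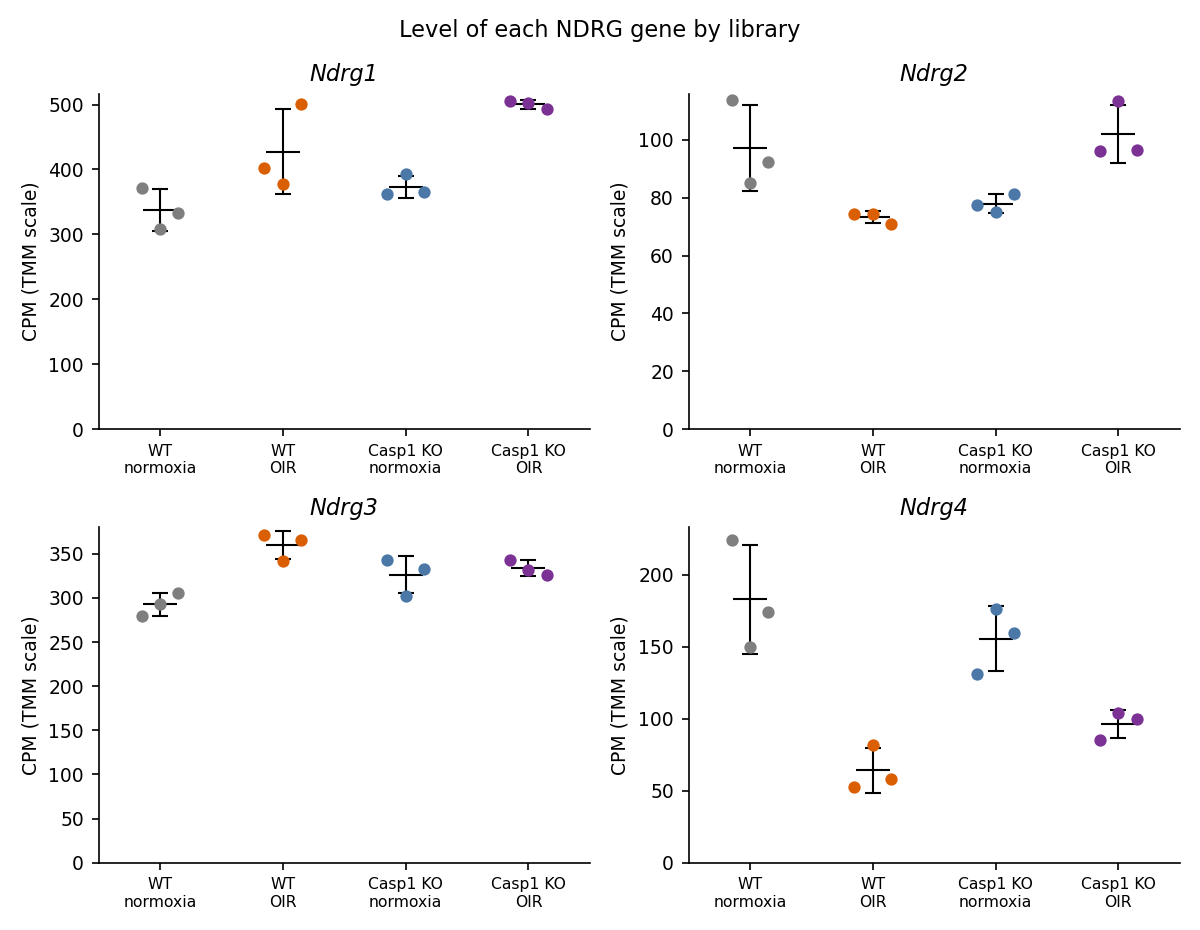
Level of Ndrg1, Ndrg2, Ndrg3 and Ndrg4 in CPM (TMM scale, y axis from 0) in the 12 libraries by labelled group (x axis), with each point a library and the bar and whiskers the mean ± SD of 3 libraries. In both genotypes Ndrg1 sits higher and Ndrg4 lower in OIR than in normoxia, while Ndrg2 sits lower in OIR in WT and higher in Casp1 KO.

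Ndrg1, the hypoxia-regulated member, was higher in OIR than in normoxia in the libraries labelled Casp1 KO. Its level there was 362, 393 and 365 CPM in normoxia (373 ± 16.95, SD, n = 3) and 506, 502 and 493 CPM in OIR (500 ± 6.76, SD, n = 3). The 2 groups did not overlap, and the libraries of each differed little among themselves. In edgeR's quasi-likelihood test Ndrg1 rose by 0.44 on the log2 scale (SE 0.080, Benjamini-Hochberg adjusted p = 5.354e-06), an increase of 35.3%. These 6 libraries took no part in the choice of the members.

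Among the libraries labelled WT the level of Ndrg1 was 372, 309 and 332 CPM in normoxia (338 ± 31.8, SD, n = 3) and 403, 378 and 502 CPM in OIR (427 ± 65.4, SD, n = 3). Every OIR library lay above every normoxia library, but replicate 3, the library that stood apart, was far above the other OIR libraries. The log2 fold change was 0.33 (SE 0.124) with it and 0.20 without it.

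Ndrg4, the neuronal member, moved the other way and further. In the libraries labelled Casp1 KO its level was 131, 176 and 160 CPM in normoxia (156 ± 22.6, SD, n = 3) and 85.6, 104 and 99.5 CPM in OIR (96.5 ± 9.69, SD, n = 3). No OIR library reached the lowest normoxia library. In edgeR's quasi-likelihood test Ndrg4 fell by 0.67 on the log2 scale (SE 0.111, Benjamini-Hochberg adjusted p = 2.497e-07).

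The libraries labelled WT held Ndrg4 at 224, 150 and 174 CPM in normoxia (183 ± 38.0, SD, n = 3) and 52.4, 82.1 and 58.5 CPM in OIR (64.3 ± 15.7, SD, n = 3). The groups were far apart, with a log2 fold change of -1.51 (SE 0.148), between -1.72 and -1.34 when each library was left out in turn. Ndrg4 was also the member whose normoxia libraries varied most relative to their mean, with replicate 1 of WT normoxia well above the other libraries of its group. In whole retina, fewer cells that express a gene and less of its RNA per cell cannot be told apart.

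Ndrg2, the glial member, did not move in one direction. Its level in the libraries labelled Casp1 KO was 77.3, 74.9 and 81.4 CPM in normoxia (77.9 ± 3.26, SD, n = 3) and 96.1, 113 and 96.5 CPM in OIR (102 ± 9.92, SD, n = 3). The OIR libraries were all higher. In edgeR's quasi-likelihood test Ndrg2 rose by 0.40 on the log2 scale (SE 0.126, Benjamini-Hochberg adjusted p = 0.0342), but this call was lost when any 1 of the 6 libraries was left out, with edgeR adjusted p-values from 0.0523 to 0.298, and in DESeq2, with an adjusted p of 0.0629.

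The libraries labelled WT held Ndrg2 at 114, 85.1 and 92.4 CPM in normoxia (97.1 ± 14.9, SD, n = 3) and 74.4, 74.4 and 71.1 CPM in OIR (73.3 ± 1.94, SD, n = 3). Here the OIR libraries were all lower and lay close together, while the normoxia libraries were spread. The log2 fold change was -0.41 (SE 0.156).

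Ndrg3, the lactate-stabilised member, was without overlap between the conditions in the libraries labelled WT and overlapped in those labelled Casp1 KO, and the difference between the genotypes was not tested. Its level in the libraries labelled Casp1 KO was 343, 303 and 333 CPM in normoxia (326 ± 21.2, SD, n = 3) and 344, 332 and 326 CPM in OIR (334 ± 9.02, SD, n = 3). These groups overlapped, and edgeR's quasi-likelihood test gave a log2 fold change of 0.04 (95% interval -0.12 to 0.21, Benjamini-Hochberg adjusted p = 0.839), whose sign turned without Casp1 KO normoxia replicate 2, at -0.02. In WT the level was 280, 293 and 305 CPM in normoxia (293 ± 12.9, SD, n = 3) and 372, 342 and 366 CPM in OIR (360 ± 15.9, SD, n = 3). The WT groups did not overlap, with a log2 fold change of 0.29 (SE 0.126).

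In all, 3 of the 4 members passed the test in the libraries labelled Casp1 KO, against 4.64% of the 22387 genes tested there. Of these, 2 were higher, against 2.61% of all genes, and 1 was lower, against 2.03%. The number was 2, Ndrg1 and Ndrg4, whenever 1 library was left out. Without overlap between the groups were 3 of the 4, against 17.1% of all genes tested. In WT all 4 members were without overlap, beside 16.7% of the 22853 genes tested. Ndrg1 and Ndrg3 were higher, beside 8.53% of all, and Ndrg2 and Ndrg4 lower, beside 8.16%, counts from which nothing is read since that contrast was known when the members were chosen.

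**Figure D2:**
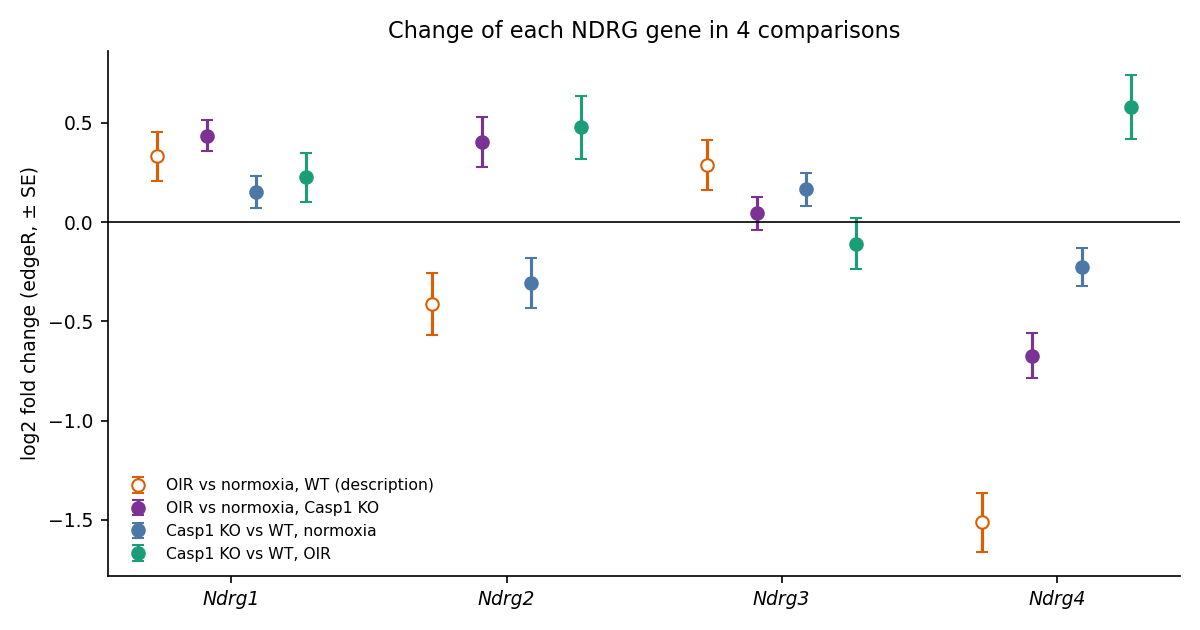
Log2 fold change (edgeR, y axis, whiskers ± SE) of each member (x axis) in OIR against normoxia in WT (open circles, a description) and in Casp1 KO, and in Casp1 KO against WT in normoxia and in OIR (filled circles). Ndrg1 lies above 0 and Ndrg4 below 0 in both OIR comparisons, with Ndrg4 at -1.51 in WT and -0.67 in Casp1 KO.

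The ratio of Ndrg1 to Ndrg4 within a library compares the 2 members without any normalization between libraries. In the libraries labelled Casp1 KO the counts of Ndrg1 were 2.76, 2.23 and 2.29 times those of Ndrg4 in normoxia and 5.91, 4.81 and 4.95 times in OIR. Every OIR library had the higher ratio. The mean log2 ratio was 1.27 ± 0.17 (SD, n = 3) in normoxia and 2.38 ± 0.16 (SD, n = 3) in OIR, a difference of 1.11, with p = 0.1 in a two-sided exact permutation test over the 20 assignments of 3 of 6 libraries. This is the smallest p that 3 against 3 libraries can give, so the test could not pass 0.05.

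In the libraries labelled WT the counts of Ndrg1 were 1.66, 2.06 and 1.91 times those of Ndrg4 in normoxia and 7.69, 4.60 and 8.57 times in OIR. The OIR libraries were again all higher but more spread, with WT OIR replicate 2 the lowest of them. The difference in the mean log2 ratio was 1.85, between 1.67 and 2.12 when each library was left out in turn.

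In the libraries labelled Casp1 KO the summed level of the family was also higher in OIR, without overlap between the groups, while in WT the groups overlapped. The 4 members together had a mean level of 910 ± 76.5 CPM in WT normoxia, 925 ± 63.7 in WT OIR, 933 ± 17.3 in Casp1 KO normoxia and 1032 ± 18.3 in Casp1 KO OIR (SD, n = 3 each). Ndrg1 made up 40.0% of the family's counts in Casp1 KO normoxia and 48.5% in Casp1 KO OIR, and Ndrg4 16.7% and 9.34%. Both shares were without overlap, with p = 0.1 in the exact permutation test, the smallest possible. Ndrg2 went from 8.35% to 9.87%, also with the exact permutation p at 0.1, and Ndrg3 from 35.0% to 32.3% with an exact permutation p of 0.3. In WT the shares in normoxia and OIR were 37.1% and 46.0% for Ndrg1, 10.6% and 7.96% for Ndrg2, 32.3% and 39.0% for Ndrg3, and 19.96% and 7.02% for Ndrg4.

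**Figure D3:**
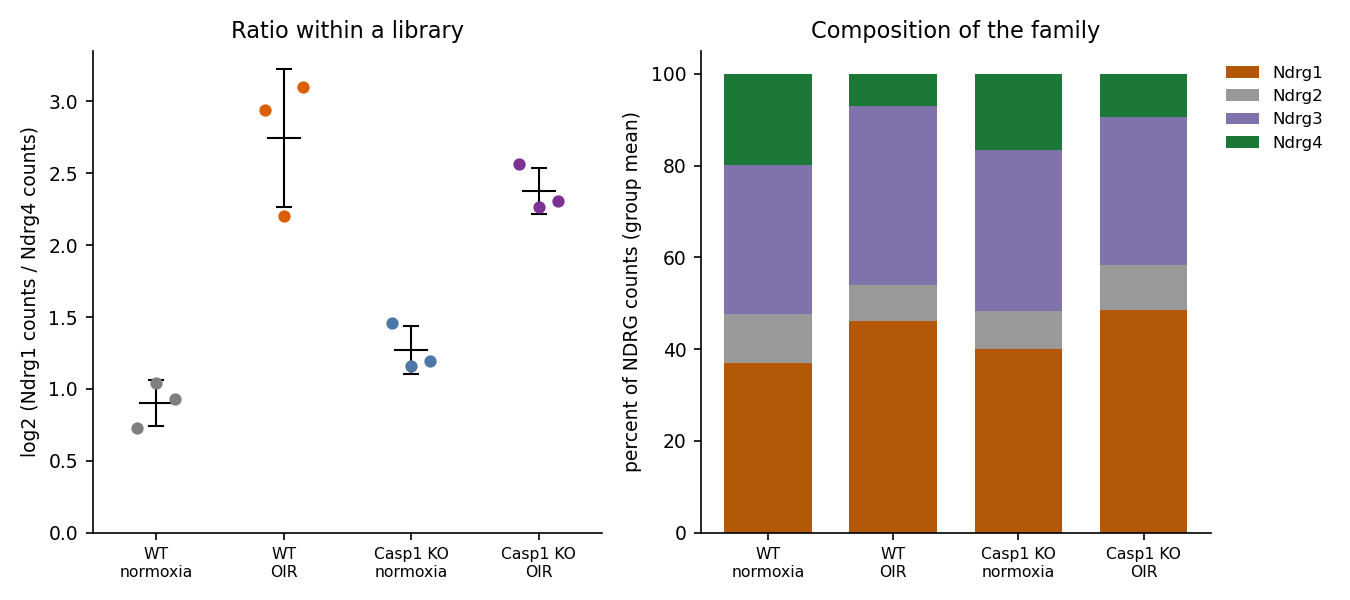
Left, log2 ratio of Ndrg1 to Ndrg4 counts in each of the 12 libraries (points) with the mean ± SD of each labelled group; right, mean percent of the family's counts taken by each member in each group. The ratio is above 2 in all 6 OIR libraries and below 1.5 in all 6 normoxia libraries, and the Ndrg4 part of the bars is smaller in OIR in both genotypes.

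The response to OIR was also set side by side between the genotypes, as the difference of the log2 fold changes in a fit to all 12 libraries. It is given as a description, since the WT response is part of it. The difference, Casp1 KO minus WT, was 0.08 (SE 0.148) for Ndrg1, or 0.21 without WT OIR replicate 3, and -0.27 (SE 0.152) for Ndrg3. It was 0.79 (SE 0.201) for Ndrg2, whose values lay on opposite sides of 0 in the 2 genotypes, and 0.81 (SE 0.185) for Ndrg4, whose OIR level was lower than its normoxia level in both.

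Between the genotypes, the values share the WT libraries with the contrast on which the family was selected. Those of all 4 members are therefore given as a description, and no call is read from them. Ndrg4 was itself chosen as low in WT OIR. In normoxia 0 of the 4 had an adjusted p under 0.05 in edgeR's quasi-likelihood test, against 1.04% of the 22480 genes tested. An unadjusted p under 0.05 was held by 3, Ndrg2, Ndrg3 and Ndrg4, against 8.63% of all, from which nothing is read. The log2 fold changes, Casp1 KO against WT, were 0.15 for Ndrg1 (95% interval -0.01 to 0.31), -0.31 for Ndrg2 (-0.55 to -0.06), 0.16 for Ndrg3 (0.003 to 0.33) and -0.23 for Ndrg4 (-0.42 to -0.03). A choice on low OIR against normoxia in WT also favours high WT normoxia values, so the interval of Ndrg4 is not read as a test. Ndrg2 was the member without overlap, lower in all 3 libraries labelled Casp1 KO normoxia than in any labelled WT normoxia, against 6.53% of genes tested that were lower without overlap. The values of Ndrg4 and Ndrg2 rested on WT normoxia replicate 1, without which they were -0.05 and -0.18, and Ndrg1 had 0.23 without that library and 0.09 without WT normoxia replicate 2. Without Casp1 KO normoxia replicate 1 the value of Ndrg4 was -0.11, and without WT normoxia replicate 2 it was -0.36.

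In OIR 0 of the 4 members had an adjusted p under 0.05 in edgeR's quasi-likelihood test, against 0.575% of the 22774 genes tested. An unadjusted p under 0.05 was held by 2, Ndrg2 and Ndrg4, against 8.36% of all, from which nothing is read. The log2 fold change of Ndrg4 was 0.58 (SE 0.162), a difference that the choice of a gene low in WT OIR builds in. Its level was 85.6 to 104 CPM in the libraries labelled Casp1 KO OIR and 52.4 to 82.1 CPM in those labelled WT OIR. Ndrg2 was also higher without overlap, at 0.48 (95% interval 0.17 to 0.79, edgeR adjusted p = 0.167). The share of all genes tested that were higher without overlap was 5.41%. Ndrg1 had a log2 fold change of 0.23 (-0.02 to 0.47) and Ndrg3 had -0.11 (-0.36 to 0.14). Without WT OIR replicate 3 alone, Ndrg1 had 0.37 with an edgeR adjusted p of 0.0124, from which no call is read.

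The hypoxia response was followed with a list of 20 other genes that low oxygen is known to induce, for setting beside Ndrg1. This list, and the regulator and marker lists below, were chosen with earlier results of these data known. Their counts against all genes are therefore given as a description. Within the libraries labelled Casp1 KO 11 of the 20 were higher in OIR, against 2.61% of all genes tested, and 0 lower, against 2.03%, in edgeR's quasi-likelihood test. Their median log2 fold change was 0.46 against -0.002 over all genes tested. Slc16a3, which exports lactate, rose by 1.06 (SE 0.12), from 61.7 to 128 CPM. Vegfa, the main signal for vessel growth, rose by 0.96 (SE 0.119), from 71.5 to 138 CPM. Slc2a1, the glucose transporter of the blood-retina barrier, rose by 0.89 (SE 0.10), from 123.6 to 227 CPM. The edgeR adjusted p-values of these 3 were 6.545e-15, 4.71e-13 and 3.882e-16. The change of Ndrg1, 0.44, was close to the median of the list.

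In WT 4 of the 20 were higher, against 1.58% of all genes tested, and 1 was lower, against 2.29%, with a median of 0.15 against 0.04 over all. There Vegfa had a log2 fold change of 0.84, from 87.1 to 158 CPM, while Slc2a1 had 0.10 and Slc16a3 -0.14. The normoxia libraries also differed. In Casp1 KO normoxia the summed level of the list was 2411 to 2599 CPM, against 2965 to 3223 CPM in WT normoxia. Most of this sum was Aldoa, with a mean of 1362 CPM in Casp1 KO normoxia and 1703 CPM in WT normoxia. Of 19 genes tested, 4 were lower in Casp1 KO normoxia, against 0.56% of all, and 0 higher, against 0.476%. The level of Ndrg1 did not share this difference, since it was 362 to 393 CPM in Casp1 KO normoxia and 309 to 372 CPM in WT normoxia.

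A second list held 16 genes that act on the family or on the pathways that control it: the kinases of the Sgk and Gsk3 families that phosphorylate NDRG proteins, Myc, Mycn and Max, the hypoxia-inducible factors with their hydroxylases and Vhl, and Egr1 and Trp53. Within the libraries labelled Casp1 KO 5 of the 16 were higher in OIR, against 2.61% of all genes tested, and 0 lower, against 2.03%, in edgeR's quasi-likelihood test, with a median of 0.30 against -0.002 over all. Sgk1, the kinase for which phosphorylated NDRG1 serves as a readout, rose by 1.09 (SE 0.180), from 26.4 to 55.8 CPM. Egr1, an immediate early transcription factor, rose by 0.92 (SE 0.133), from 55.8 to 105 CPM. Vhl, which marks hypoxia-inducible factor for degradation, rose by 0.82 (SE 0.178), from 30.01 to 52.9 CPM. In WT normoxia Sgk1, Egr1 and Vhl had means of 41.4, 128 and 29.7 CPM. The means of Sgk1 and Egr1 were thus lower in Casp1 KO normoxia than in WT normoxia, and that of Egr1 was lower in Casp1 KO OIR too. In WT 0 of the 16 were higher, against 1.58% of all genes tested, and 1 was lower, against 2.29%, with a median of 0.13 against 0.04 over all, and Sgk1, Egr1 and Vhl had log2 fold changes of 0.25, -0.67 and 0.14. The mRNA of Hif1a, whose product is controlled mainly as a protein, had 658 and 664 CPM in WT normoxia and OIR and 602 and 635 CPM in the Casp1 KO groups.

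Marker genes of several retinal cell types moved with the members. Of all genes tested, 2.61% were higher and 2.03% lower in OIR in Casp1 KO and 1.58% and 2.29% in WT, against which each count of markers below is to be read. Among 10 markers of retinal ganglion cells, the output neurons whose axons form the optic nerve, 6 were lower and 0 higher in OIR in Casp1 KO and 7 lower and 0 higher in WT, beside the lower Ndrg4. Their summed level was 3380 to 3635 CPM in Casp1 KO normoxia and 1791 to 1868 CPM in Casp1 KO OIR, and 3080 to 3310 and 1476 to 1840 CPM in the WT groups. The neurofilament genes Nefl and Nefm held most of these reads, and Nefm fell by 1.16 in Casp1 KO. The defining markers Rbpms and Pou4f2 had log2 fold changes of -0.16 and -0.47 in Casp1 KO (edgeR adjusted p = 0.580 and 0.593), while Sncg fell by 0.90. Of 11 pan-neuronal genes 5 were lower in Casp1 KO OIR and 3 in WT OIR, with 0 higher in either. Of 9 amacrine markers, 0 were called in Casp1 KO and 4 were lower in WT, the genotype in which Ndrg4 differed more. The part of these cells in the level of Ndrg4 was not tested.

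Markers of Muller glia, the glia that span the retina, were among those that moved with Ndrg2. Of 10 such genes 8 were higher and 0 lower in OIR in Casp1 KO, and 1 was higher and 3 were lower in WT. Their summed level was 2469 to 2594 CPM in Casp1 KO normoxia, 3781 to 3965 in Casp1 KO OIR, 3454 to 3552 in WT normoxia and 2864 to 3055 in WT OIR, the same order of normoxia and OIR as Ndrg2 in each genotype. The mean sums of bipolar, amacrine and oligodendrocyte markers had that order too. Their log2 ratios of OIR to normoxia were -0.17, -0.53 and -1.825 in WT and 0.15, 0.08 and 0.29 in Casp1 KO. Of these, bipolar overlapped in WT, and amacrine and oligodendrocyte in Casp1 KO. The astrocyte sum was higher in OIR in both genotypes, at 0.60 and 0.66. Glul, which makes glutamine, rose by 0.41 in Casp1 KO and Rlbp1, which binds retinoids, by 0.28. In normoxia 7 of the 10 Muller glia genes were lower in Casp1 KO than in WT, against 0.56% of all genes tested, and 0 higher, beside the lower Ndrg2. The bipolar, amacrine, horizontal and oligodendrocyte sums were also lower there without overlap, while the astrocyte sums overlapped. The part of any of these cells in the level of Ndrg2 was not tested.

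Other tissue moved with the groups too. The summed level of 13 oligodendrocyte genes was 279 to 338 CPM in WT normoxia and 54.8 to 96.0 CPM in the other 9 libraries. The level of Ndrg1 was lowest in WT normoxia, where that sum was highest. Lens genes were higher in Casp1 KO OIR than in Casp1 KO normoxia and than in WT OIR, 8 of 8 in either comparison, and 0.263% of all genes tested were higher in the latter. Their summed level was 1450 to 1636 CPM, against 833 to 872 and 470 to 1051 CPM. Of 7 genes of the retinal pigment epithelium, 3 were higher and 0 lower in Casp1 KO OIR than in normoxia, at a summed 788 to 878 CPM against 469 to 492. The highest level of Ndrg1 was in that same group, and the part of these tissues in it was not tested.

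Other marker lists give the background of these values. In Casp1 KO, 3 of 8 microglia genes were higher in OIR and 0 lower, and of 4 astrocyte genes 1 was higher, Gfap, which rose by 2.31 from 17.4 to 86.3 CPM, and 1 lower. For cone photoreceptors, 3 of 8 genes were higher and 1 lower. Of 4 horizontal cell genes 1 was lower, and 0 of 8 bipolar, 9 endothelial, 6 pericyte, 4 red blood cell and 12 tested oligodendrocyte genes were called. In WT, 2 of 8 microglia, 1 of 4 astrocyte, 1 of 9 endothelial and 4 of 4 red blood cell genes were higher, 1 cone, 1 bipolar, 1 horizontal and 7 of 13 oligodendrocyte genes were lower, 0 of 6 pericyte and 0 of 8 lens genes were called, and of 7 pigment epithelium genes 2 were higher and 1 lower.

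**Figure D4:**
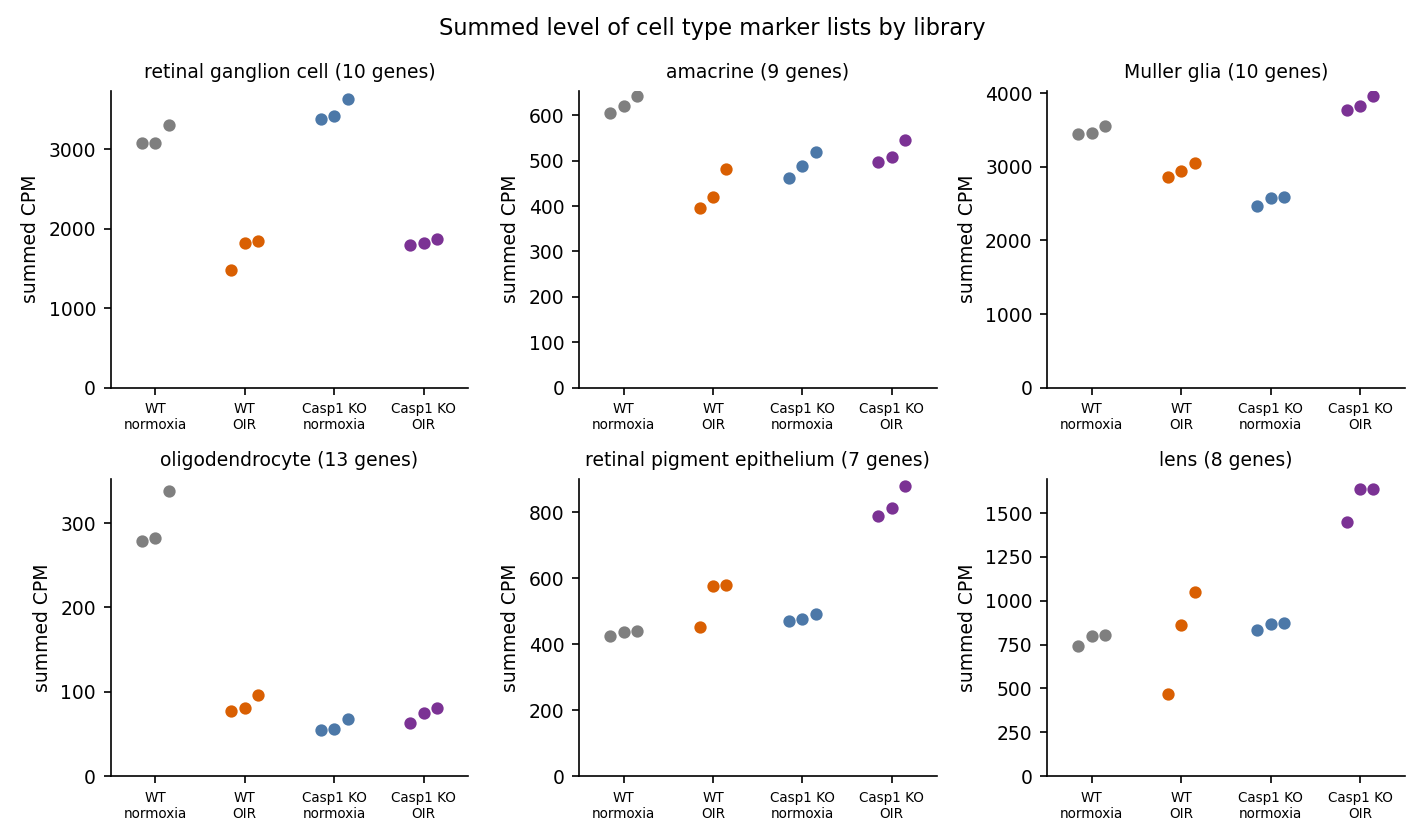
Summed CPM (TMM scale, y axes from 0) of 6 marker lists in the 12 libraries by labelled group, with each point a library, ordered by value within its group. Retinal ganglion cell markers are lower in OIR in both genotypes, Muller glia markers are lower in WT OIR and higher in Casp1 KO OIR, and oligodendrocyte markers are high in the 3 WT normoxia libraries, at 279 to 338 CPM.

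The genes whose levels were most like those of each member over the 12 libraries were found among 9427 others with a mean of at least 10 CPM, by Pearson's r of log2(CPM + 1). The libraries share their groups and depth, so r is given as a description. Over all genes compared, the 95th percentile of r was 0.693 for Ndrg1 and 0.732 for Ndrg4. For Ndrg1 these were Plpp2 (r = 0.954), Zfp516 (0.947), Cirbp (0.946), Lonrf1 (0.940) and Rbp3 (0.933). Cirbp encodes a cold-inducible RNA-binding protein and Rbp3 the retinoid-binding protein that photoreceptors secrete. None of the 5 was on the hypoxia list, which held only 20 genes, so nothing is read from this. Cirbp had a level of 182 CPM in WT normoxia, 321 in WT OIR, 227 in Casp1 KO normoxia and 418 in Casp1 KO OIR, and Rbp3 had 1504, 1909, 1623 and 2215 CPM in the same order.

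For Ndrg4 they were Cabp1 (r = 0.973), Syt11 (0.963), Zcchc18 (0.961), Gnao1 (0.959) and Nf2 (0.959). Cabp1 encodes a neuronal calcium-binding protein, Syt11 a synaptotagmin of vesicle traffic and Gnao1 the G protein subunit of ON bipolar cells and of many neurons. None of the 5 was on the list of ganglion cell markers, which held only 10 genes, so nothing is read from this either. Cabp1 was at 116 CPM in WT normoxia, 47.3 in WT OIR, 88.3 in Casp1 KO normoxia and 69.4 in Casp1 KO OIR. By Spearman's rank correlation 4 of these 5 were again among the nearest 5, against 2 of 5 for Ndrg1.

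For Ndrg2 the nearest genes were Coq5 (r = 0.887), Nxnl1 (0.879) and Ccdc85c (0.874), and for Ndrg3 they were Asxl2 (0.937), Arid3b (0.913) and A930033H14Rik (0.913). Coq5 acts in the synthesis of coenzyme Q, Nxnl1 encodes the rod-derived cone viability factor and Asxl2 and Arid3b encode chromatin proteins. Among the members themselves, Ndrg3 and Ndrg4 were the most opposed, with r = -0.888 over the 12 libraries and -0.801 for the deviations from the group means. Ndrg1 and Ndrg4 had r = -0.582, and 0.109 for the deviations, so within the groups their levels hardly moved together.

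**Figure D5:**
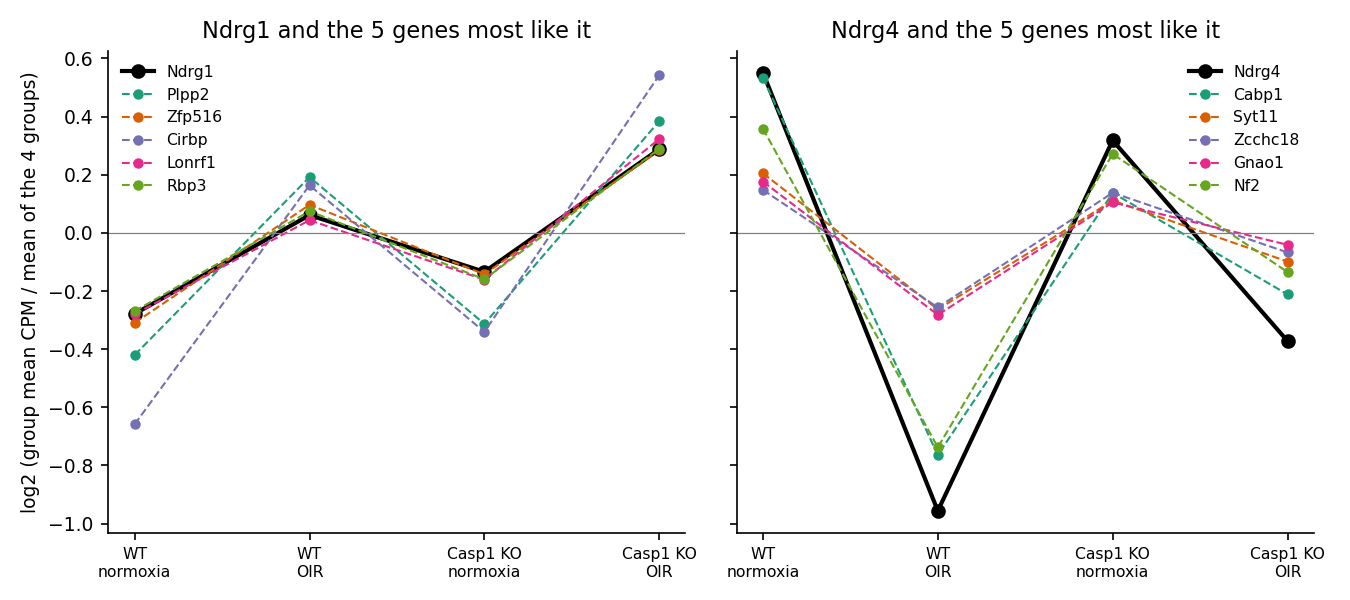
Log2 of the group mean CPM relative to the mean of the 4 groups (y axis) for Ndrg1 (left) and Ndrg4 (right, black solid lines) and the 5 genes most like each (dashed lines), by labelled group; the lines join groups only to guide the eye. Ndrg1 and its nearest genes are lowest in WT normoxia and highest in Casp1 KO OIR, whereas Ndrg4 and its nearest genes are highest in WT normoxia and lowest in WT OIR.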

How the data were processed

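The authors made QuantSeq 3' libraries from TRIzol-extracted retinal RNA, read them at 75 bases, aligned them to mm10 with STAR and counted reads per gene with htseq-count. The submitters' processing notes name STAR 2.7.5a, HTSeq 0.6.1 and edgeR. The deposited values are whole-number counts per gene symbol without normalization, and no entry stands for anything but a gene. The gene annotation, strand setting and treatment of multiply matching reads are not given in the sources used here. The members and gene lists were chosen with earlier results of these data known.

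For each pair of groups, their 6 libraries were fitted in R 4.3.3 with edgeR 4.0.16 (TMM, genes with at least 1 count, glmQLFit, glmQLFTest, prior count 0.125, Benjamini-Hochberg adjustment over all genes, threshold 0.05). A standard error is the size of the log2 fold change over the root of the F statistic. The genes named are the 4 members, Casp1, the genes most like each member, up to 3 genes each way with the smallest p from the hypoxia and regulator lists, and the defining or most counted markers of each cell type, while Hif1a was named after its values were seen. One marker gene and its list are not reported here. Single ratios and shares were compared by exact permutation tests with scipy 1.17.1. On simulated counts for Casp1 KO OIR against normoxia (20726 genes), 36% of 100 genes changed by 0.5 on the log2 scale were recovered. Of 100 genes changed by 1, 85% were recovered, and 12 of the unchanged genes were called falsely. The counts were drawn with edgeR's own dispersion estimates, a setting that favours edgeR. The changed genes were drawn only from those with higher mean counts, so these rates were not measured for scarce genes. A count of 0 would allow up to 3 counts, at most 0.885 CPM in any library, well below every member. Intervals cover counting error and library spread only, since no molecular identifiers are described. Alternatives were DESeq2 1.42.0 and its size factors, library size alone, filterByExpr, all 12 libraries in one fit, a replicate block and each library left out in turn, and the block for the ratio was added after the data were seen.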

Additional observations from a re-analysis of the deposited data

Results flagged for a closer look

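Ndrg2 stood out because its OIR libraries moved opposite ways in the 2 genotypes. On the log2 CPM scale, the mean of OIR minus normoxia was -0.395 in the libraries labelled WT, where every OIR library was lower, and 0.385 in those labelled Casp1 KO, where every OIR library was higher. Its share of the family's counts moved in the same way, by -2.67 percentage points in WT and 1.52 in Casp1 KO. This difference between the genotypes was not tested, since the WT response was known when the members were chosen. The summed levels of the Muller glia, bipolar, amacrine and oligodendrocyte markers had the same signs in both genotypes, while that of the astrocyte markers was higher in OIR in both. The part of these cells in the difference was not tested.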

How the results depend on the processing

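In the libraries labelled Casp1 KO, the calls of Ndrg1 and Ndrg4 held under every alternative run. The rise of Ndrg2 lost its call in DESeq2 (0.39, adjusted p = 0.0629), with all 12 libraries in one edgeR fit (0.39, adjusted p = 0.150) and whenever 1 library was left out (0.30 to 0.44). Ndrg3 changed sign without Casp1 KO normoxia replicate 2, at -0.016 (leave-one-out range -0.016 to 0.079). For Casp1 KO against WT in OIR, Ndrg4 had 0.59 with DESeq2's size factors and 0.58 with all 12 libraries, each putting 1 member past the threshold in place of 0. No call of a member is read there, since the WT OIR libraries took part in the selection of the family. With each library left out, Ndrg4 ranged from 0.46 to 0.80, Ndrg1 from 0.14 to 0.37 and the number of members called from 0 to 2, and the changed calls came without WT OIR replicate 2 or 3. The difference of the OIR change of Ndrg1 between genotypes ranged from -0.00092 to 0.21 in the same way. The causes of these changes were not tested. Samples with the same replicate number did not deviate together (correlations of -0.0606 to 0.0873), and the numbers mark no pairing in the labels. With the replicate number as a block, Ndrg2 in Casp1 KO had an edgeR adjusted p of 0.0460, and no call of a member changed. The fewest reads of a member in a library were 214, for Ndrg4 in WT OIR.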
